A study of Mus musculus with 4 samples.

Results

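The L1Md_F group comprises the LINE-1 loci that the repeatmasker annotation names L1Md_F, L1Md_F2 or L1Md_F3. Members were picked by name alone from the tables of reads on LINE loci, and 11584 of the 145916 LINE loci with a read in at least 1 library belonged to the group. Reads were counted in 4 mouse libraries of the C57BL/6J strain, 1 each from WT fibroblasts, Lsh-/- fibroblasts, WT embryos and Lsh-/- embryos at E13.5, a stage of mid-gestation. The fibroblasts came from adult tail-tips and were SV40-transformed cultures, and the embryos were whole, so many cell types share a library. The labels call the control embryos WT, whereas the study's methods speak of heterozygous and homozygous embryos, and how many animals gave each library is not stated in the sources used here. In each tissue the Lsh-/- library was set against its control library to ask how transcription from these loci differs without Lsh. With 1 library in each group no difference below has a replicate check, and the intervals given cover counting error only.

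LINE-1 elements are retrotransposons that encode the proteins needed to copy themselves through an RNA intermediate. A complete copy starts with its own promoter at the 5′ end and carries the reverse transcriptase in a long reading frame near its 3′ end, but most copies in a genome are cut short at the 5′ end. Lsh, encoded by Hells, is a SNF2-family chromatin remodelling factor required for normal DNA methylation of repeats, and DNA methylation is among the marks that keep LINE-1 promoters silent. The F names mark an older mouse lineage, and L1Md_A, L1Md_T and L1Md_Gf are names of younger lineages that serve here as the most similar groups.

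To show how alike the loci behind the counts are, a stretch of 100 bases was read from the mm9 genome for loci that carry the results. The ruler was the member with the longest stretch of sense-strand sequence free of stop codons, an L1Md_F2 locus of 6235 bp at chr1:7221068-7227302 on the minus strand. This stretch ran for 1300 codons, from base 1658 to base 5557 of the element. The locus itself held 3 counts in Lsh-/- fibroblasts and 0 in the other libraries. The first set takes the 3 L1Md_F-group loci above 1 with the most counts in fibroblasts and the one with the most in embryos. It is written 5′ to 3′ in the sense of the element, beside bases 3617 to 3716 of the ruler, and capitals mark bases that differ from the ruler.
chr1:7223587-7223686 (minus, ruler): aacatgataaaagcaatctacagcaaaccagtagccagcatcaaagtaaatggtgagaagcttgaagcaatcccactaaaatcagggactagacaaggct
chr12:19870032-19870131 (minus): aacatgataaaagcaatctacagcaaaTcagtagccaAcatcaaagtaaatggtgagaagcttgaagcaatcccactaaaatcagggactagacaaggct
chr8:71887794-71887893 (minus): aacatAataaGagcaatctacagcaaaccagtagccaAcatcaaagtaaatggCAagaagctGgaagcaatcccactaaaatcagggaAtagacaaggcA
chr10:104240452-104240551 (minus): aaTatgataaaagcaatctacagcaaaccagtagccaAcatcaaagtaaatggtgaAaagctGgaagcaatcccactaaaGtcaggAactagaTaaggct
chr9:19507179-19507278 (minus): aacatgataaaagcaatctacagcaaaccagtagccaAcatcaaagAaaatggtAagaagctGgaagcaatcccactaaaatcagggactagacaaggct
The 4 loci differed from the ruler at 2, 8, 7 and 4 of these 100 bases, in the order printed. Over their whole aligned length they matched it at 92.9%, 91.4%, 94% and 93.6% of bases.
The second set shows the locus with the most counts of all and the locus with the second most counts among those above 1 in both tissues, beside bases 5243 to 5342 of the ruler.
chr1:7221961-7222060 (minus, ruler): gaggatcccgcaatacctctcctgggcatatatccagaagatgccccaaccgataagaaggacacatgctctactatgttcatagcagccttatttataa
chr2:90234649-90234748 (plus): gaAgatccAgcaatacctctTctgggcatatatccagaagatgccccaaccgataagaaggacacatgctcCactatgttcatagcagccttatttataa
chr2:177388991-177389090 (minus): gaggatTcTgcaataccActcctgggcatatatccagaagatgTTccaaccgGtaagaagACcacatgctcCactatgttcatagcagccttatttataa
Here 4 and 9 bases differed. Only reads with a single best place in the genome were counted, so a locus is measured through those reads that cover bases where it differs from its relatives.

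The group was made up of 760 L1Md_F, 8973 L1Md_F2 and 1851 L1Md_F3 loci. Members were between 52 and 8625 bp wide with a median of 971 bp, and 1571 of them (13.6%) were 5000 bp or wider, against 3.02% of all LINE loci. The other 10013 members are called shorter fragments here. The width limit divides neighbours, since the widest fragment below it spanned 4999 bp and the narrowest member above it 5000 bp. By GENCODE vM1, 6151 members (53.1%) lay outside annotated genes, 5279 in introns and 136 overlapped an exon, whereas 32.5% of all LINE loci lay outside genes. Of wide members 74.5% lay outside genes, and of shorter fragments 49.7%. Where a member lay in a gene on a single strand, it was on the opposite strand from the gene in 58.6% of cases, against 65.6% for all LINE loci. Chromosome X held 10.3% of members and 6.83% of all LINE loci. The median CpG content was 0.746 per 100 bases, below that of L1Md_A (0.939) and of L1Md_T and L1Md_Gf loci (0.968).

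The tables of a library held between 19216257 and 33904311 counts in all, of which the L1Md_F group took between 28291 and 39161. The 2 intervals of the tables that overlap exons 11 and 12 of Hells, chosen after their values were seen, held 937 WT and 0 Lsh-/- counts in fibroblasts, and 427 and 0 in embryos. Reads lay on the rest of Hells in every library. The 10 intervals that overlap its other exons and none of exons 11 to 13 held 5784 WT and 6132 Lsh-/- counts in fibroblasts, and 2187 and 2014 in embryos. On chromosome Y the intervals beside LINE loci held 12 counts for WT fibroblasts, 5402 for Lsh-/- fibroblasts, 19973 for WT embryos and 20654 for Lsh-/- embryos, so the fibroblast libraries differ on the sex chromosomes as well as in genotype. Of 12 fibroblast markers, 11 could be read where such an interval overlaps an exon. They summed to 9100 CPM (counts scaled to library size) in WT fibroblasts and 6710 CPM in Lsh-/- fibroblasts, with Lum at 0 in both. Vim alone held 5660 and 3640 CPM of these sums, and 4 of the 11 were higher in Lsh-/- fibroblasts (Col3a1, Fn1, Pdgfrb and Dcn). All 4 muscle markers were higher in Lsh-/- fibroblasts (a sum of 20 CPM against 0.0513 CPM, of which Myod1 held 18 CPM), as were 3 of 3 epithelial markers (2.13 against 0.103 CPM). The 4 neural markers read summed to 47.7 CPM in WT and 24.9 CPM in Lsh-/- fibroblasts, of which Tubb3 held 43.5 and 20.4 CPM. Of these 4, 1 was higher in Lsh-/- fibroblasts, Pax6 at 4.47 CPM against 4.11 CPM. The 3 liver markers read summed to 117 CPM in WT embryos and 14.4 CPM in Lsh-/- embryos, with Alb and Afp both lower in the latter. The 5 red blood cell markers summed to between 9.56 and 12.2 CPM in all libraries, most of it from Alas2. Hbb-y held 0.739 CPM in WT and 0.0768 CPM in Lsh-/- embryos, and Hba-a1 held 1.07 and 0.0768 CPM. The part of cell makeup in the differences below was not tested, and fewer cells of a type cannot be told apart from less RNA per cell.

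In fibroblasts, many L1Md_F-group loci that gave no read in WT cells gave reads in Lsh-/- cells. A locus was compared where its pair of libraries held at least 10 counts together, which 754 of the 6870 members with a read in fibroblasts did. The log2 fold change is Lsh-/- over WT, on counts scaled to the library sizes with a small prior count added, and its median over these members was 0.61, with quartiles of −0.62 and 6.32. It was above 1 at 328 members (43.5%), while 24.1% of all 14058 LINE loci compared in fibroblasts were above 1. It was below −1 at 140 members (18.6%), close to the 18.2% of all LINE loci. When libraries were scaled to the total over all 6 tables instead, the median was 1.28, with 55.6% of members above 1 and 9.42% below −1. On the first scale the value was above 5 at 201 members (26.7%), with 8.74% of all LINE loci above 5, and below −5 at 6 members (0.796%), with 1.04% of all LINE loci below −5. At 200 of the 201 members above 5 the WT library held no read at all, and their 2 WT counts stood against 7583 in Lsh-/- fibroblasts. For such loci the fitted value depends on the number added, so each zero was also replaced by 3 counts, the upper limit that a count of 0 allows. The upper quartile then came to 2.07 and 20 members were still above 5. The median stayed at 0.61 and the number above 1 at 328. With at least 10 counts in the pair, a locus without WT reads stays above 1 after the replacement. Replacing zeros therefore could not move either value, and they are no check of these loci.

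The distribution of L1Md_F-group values in fibroblasts had a separate group of loci at 6 and above, which the embryo values held in smaller number. The gap below this group follows from the settings. A locus with 0 WT and 10 Lsh-/- counts, the fewest compared, was given 6.32 in fibroblasts. With zeros replaced by 3 counts, 20 members in fibroblasts and 4 in embryos were above 5. The group therefore marks loci without WT reads, and its place on the axis does not measure the size of the difference.

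**Figure D1:**
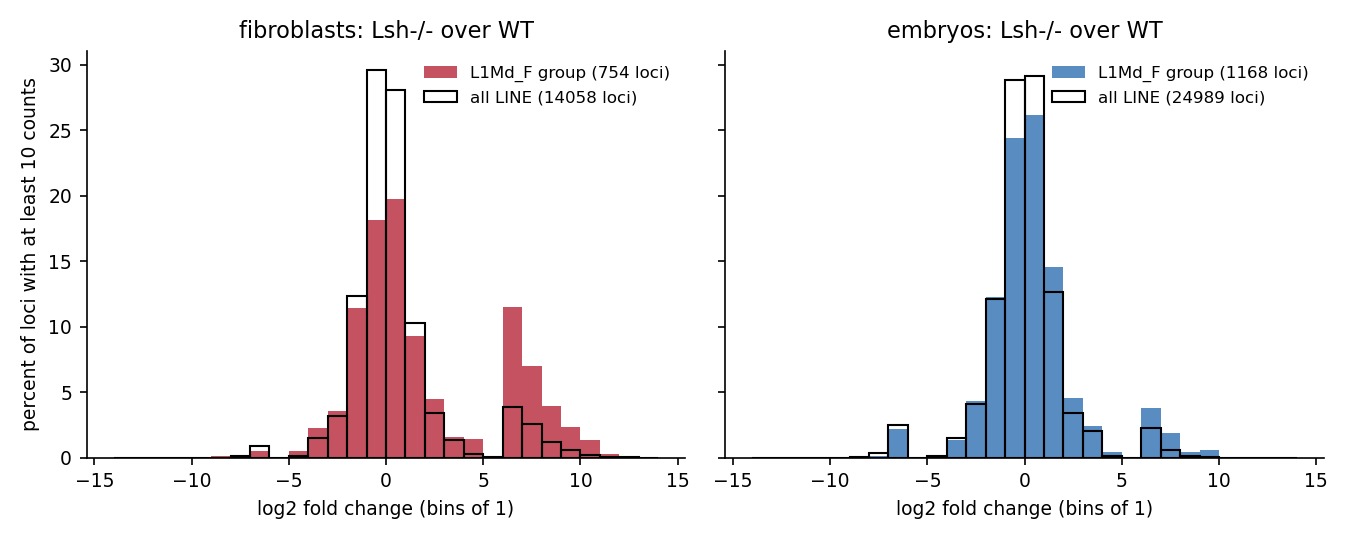
Percent of loci (vertical axis) in each bin of 1 of the log2 fold change, Lsh-/- over WT (horizontal axis), for fibroblasts on the left and embryos on the right. Filled bars are L1Md_F-group loci (754 and 1168) and outlined bars are all LINE loci (14058 and 24989). The filled bars above 5 hold 26.7% of members in fibroblasts and 6.85% in embryos.

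In embryos fewer members were above 5. Of 7830 members with a read, 1168 had at least 10 counts in the pair, and their median log2 fold change was 0.16, with 336 members (28.8%) above 1 and 242 (20.7%) below −1. Of all 24989 LINE loci compared in embryos, 21.3% were above 1 and 20.7% below −1. A value above 5 was found at 80 members (6.85%), beside 3.09% of all LINE loci, and a value below −5 at 30 members, beside 2.89% of all LINE loci. At 78 of the 80 the WT library held no read, and the 80 held 2 WT and 2158 Lsh-/- counts in embryos. With zeros replaced by 3 counts, 4 members were above 5. The median was again 0.16 and 336 members were above 1, which the minimum of 10 counts fixes here too.

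The 3 names gave similar pictures. In fibroblasts the median log2 fold change was 0.68 for 75 L1Md_F loci, 0.63 for 577 L1Md_F2 loci and 0.41 for 102 L1Md_F3 loci, and 30.7%, 26.9% and 22.5% of them were above 5. In embryos the medians were 0.20, 0.16 and 0.14, and 10.3%, 7.09% and 4.17% were above 5. L1Md_F contributed only 23 and 9 loci to these shares, and the order of the names in fibroblasts depended on the settings. With a prior count of 1 the shares were 9.33%, 7.97% and 9.8%, with at least 50 counts they were 9.09%, 34.5% and 28.6%, and with zeros replaced by 3 counts 0, 18 and 2 loci were above 5. The younger lineages stood near the group, with medians in fibroblasts of 1.13 for 75 L1Md_A loci and 1.12 for 112 L1Md_T and L1Md_Gf loci, and 25.3% and 36.6% above 5. In embryos their medians were 0.05 and 0.21, and 7.41% and 11% were above 5.

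Width separated the members in fibroblasts in both directions. The 112 wide members compared had a median of 1.69, and 44 of them (39.3%) were above 5 while 33 (29.5%) were below −1. The 642 shorter fragments had a median of 0.54, with 157 (24.5%) above 5 and 107 (16.7%) below −1. Shares above 5 were 12.6% for fragments under 500 bp, 24% from there to below 1000 bp, 34.5% to below 2000 bp, 36.2% to below 3500 bp and 35.4% to below 5000 bp. Among other LINE loci the share above 5 was 4.67% under 500 bp and 28.2% at 5000 bp or more. Of those at 5000 bp or more 20% were below −1, beside 18.1% of all LINE loci under 5000 bp. Of 43 wide L1Md_T and L1Md_Gf loci 53.5% were above 5 and 6.98% below −1. Of 14 wide L1Md_A loci 35.7% were above 5 and 14.3% below −1. In embryos the 151 wide members had a median of 0.05 with 17 (11.3%) above 5, and the 1017 shorter fragments had a median of 0.18 with 63 (6.19%) above 5. Of other LINE loci of 5000 bp or more, 9.13% were above 5 in embryos, near the share of the wide members. The median of wide members in fibroblasts depended on the limit. The 72 members from 5000 to below 6000 bp had a median of 0.61, beside 0.63 for the 42 from 4000 to below 5000 bp, and with a limit of 6000 bp the wide members had a median of 4.08 and 50% were above 5. When fragments within 1000 bp were joined, the median of wide members was 0.79 and 33.1% were above 5.

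**Figure D2:**
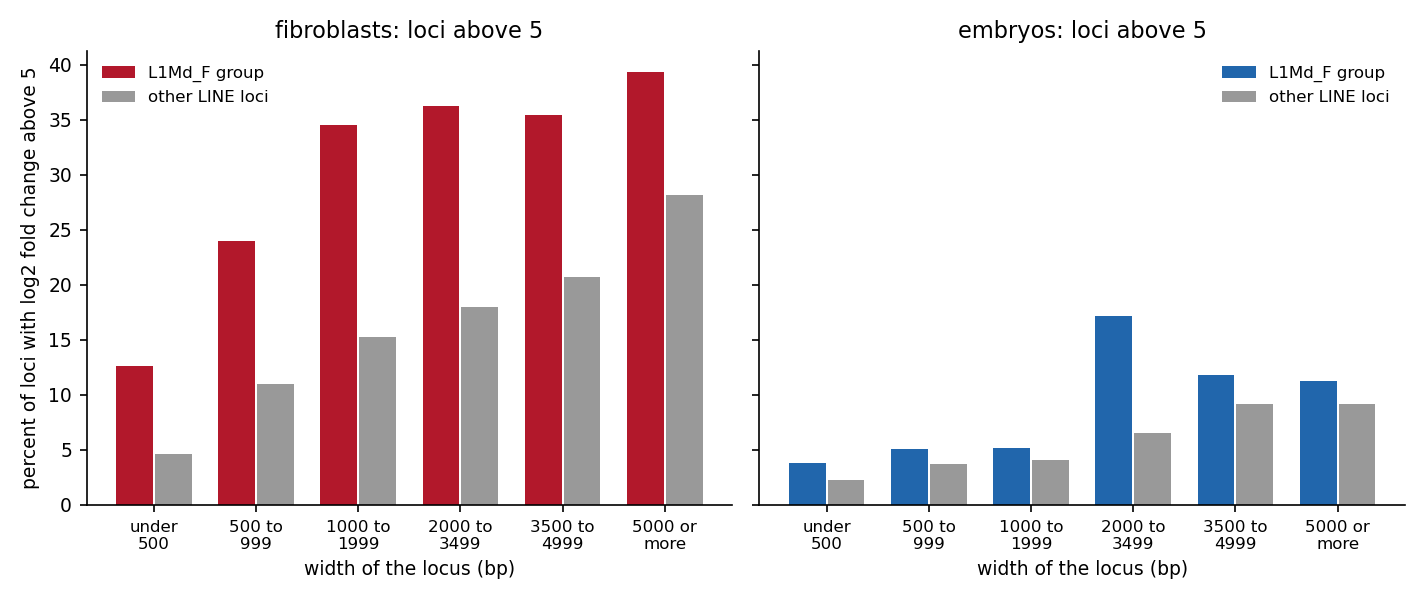
Percent of compared loci with a log2 fold change above 5 (vertical axis, from 0) in 6 classes of locus width in bp (horizontal axis), for fibroblasts on the left and embryos on the right. Coloured bars are L1Md_F-group loci and grey bars are all other LINE loci. In fibroblasts the share of the group runs from 12.6% in the narrowest class to 39.3% in the widest, and each class lies above the grey bar beside it.

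Members outside genes and members in introns stood apart in fibroblasts. There 319 members outside annotated genes had a median log2 fold change of 6.32, or 2.04 with zeros replaced by 3 counts, and 172 of them (53.9%) were above 5. Of all LINE loci outside genes 34.4% were above 5. The 385 intronic members had a median of −0.20, and 26 of them (6.75%) were above 5 while 113 (29.4%) were below −1. Of all intronic LINE loci 1.86% were above 5 and 22.1% below −1. The 45 members that overlap an exon had a median of 0.17 and 1 was above 5. Outside genes 59.6% of wide members and 52.7% of shorter fragments were above 5. There the wide loci of other LINE names had 56.6% above 5, close to the wide members, whereas their shorter loci had 31.3%. In introns the shares were 17.3% for 52 wide members and 5.11% for 333 shorter fragments, and 48.1% of those wide intronic members were below −1, against 33.3% of wide intronic loci of other LINE names. In embryos 51 of 328 members outside genes (15.5%) were above 5 and 27 of 776 intronic members (3.48%), beside 8.77% and 2.21% of all LINE loci in these places. Members above 5 inside a gene lay on the opposite strand from it in 18 of 24 cases in fibroblasts and 16 of 28 in embryos, while of all members compared inside a gene 54.4% and 55% did.

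Members above 5 differed from the rest in the part of the element they hold. Of 1453 members compared in either tissue and lying on a reference chromosome, 1435 could be aligned to the ruler over at least 50% of their length, with a median identity of 91.4%. In fibroblasts 67 of the 184 members that hold some of the first 500 bases (36.4%) were above 5, as were 107 of 311 that start later but before the end of the reading frame (34.4%). Of the 245 that start beyond the reading frame 21 (8.57%) were above 5, near the 8.74% of all LINE loci. These last members are short, since they can align only to the ruler beyond base 5557 of 6235. The part of the element held and width therefore cannot be told apart here. They also lay outside genes less often, in 21.6% of cases against 54.3% and 51.8%. In embryos the 3 shares were 11%, 7.73% and 3.6%, beside 3.09% of all LINE loci. Similarity to the ruler did not order the shares: 20.5% of members at up to 88% identity, 27.7% of those between 88 and 91% and 26.5% of those over 91% were above 5 in fibroblasts.

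**Figure D3:**
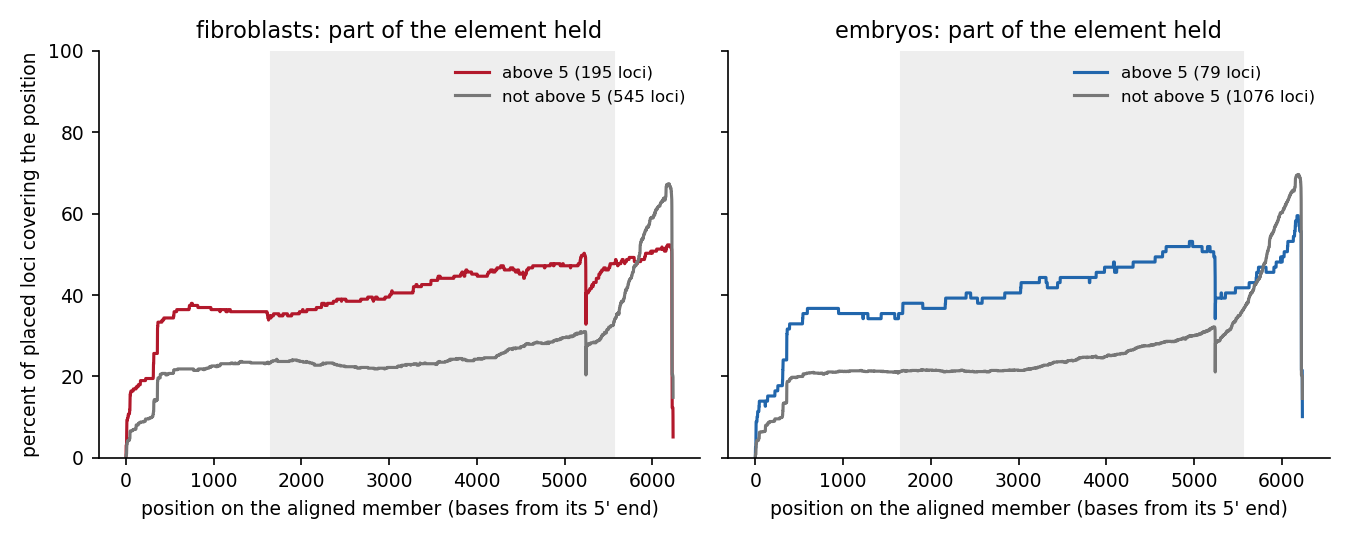
Percent of aligned L1Md_F-group loci that span each position (vertical axis) of the 6235 bp ruler, counted in bases from its 5′ end (horizontal axis), for fibroblasts on the left and embryos on the right. Coloured lines are the loci above 5 (195 and 79), grey lines the other loci compared (545 and 1076), and the shaded band is the long reading frame. Over most of the element the coloured line lies above the grey one, and the order turns at the 3′ end.

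One locus dominated the summed counts of WT fibroblasts. There an L1Md_F3 fragment of 721 bp at chr2:90234648-90235368 on the plus strand, outside annotated genes and 34543 bp from Ptprj, held 24030 counts, which was 61.4% of all counts of the group in that library. It held 1421 counts in Lsh-/- fibroblasts, 1506 in WT and 2037 in Lsh-/- embryos, and its log2 fold change was −4.13 (95% counting interval −4.20 to −4.05) in fibroblasts and 0.49 (0.39 to 0.59) in embryos. Ptprj encodes a receptor-type protein tyrosine phosphatase. With this locus the group summed to 39161 WT and 28291 Lsh-/- counts in fibroblasts, a scaled log2 ratio of −0.52 (−0.54 to −0.49). Without it the sums were 15131 and 26870, and the ratio was 0.78 (0.75 to 0.81). The direction of the group's sum in fibroblasts therefore depends on this 1 locus, and also on the scaling, since the ratio with the locus was 0.16 when libraries were scaled to the total over 6 tables. In embryos the group summed to 30008 counts in WT and 32452 in Lsh-/-, a ratio of 0.17 (0.14 to 0.19), and to 28502 and 30415 without that locus, a ratio of 0.15. Wide members alone summed to 1818 WT and 4078 Lsh-/- counts in fibroblasts, a ratio of 1.12 (1.04 to 1.2), and to 3861 and 4385 in embryos, a ratio of 0.24 (0.18 to 0.30).

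Of the loci above 1 in fibroblasts, those with the most counts were of several kinds. An L1Md_F2 fragment at chr12:19867521-19870397, whose bases are shown above, held 131 WT and 353 Lsh-/- counts in fibroblasts and 206 and 184 in the embryo libraries, with a log2 fold change of 1.38 (1.09 to 1.68) in fibroblasts. Another at chr8:71887115-71891442, 4602 bp from Gm10033, held 45 and 341 counts in fibroblasts and 74 and 57 in embryos, a log2 fold change of 2.87 (2.42 to 3.36). One at chr10:104237951-104240863, the nearest gene being Tmtc2 at 383856 bp, held 0 WT and 309 Lsh-/- counts in fibroblasts, and 0 in both embryo libraries. Against 3 counts in WT this is 99.7-fold higher, with the counting error of the Lsh-/- count left out. The counting interval of its log2 fold change starts at 6.33. These loci show both forms of difference, since the first 2 had reads in every library and the last in 1 library alone. An L1Md_F2 fragment at chr1:116090871-116091591 held 0 and 267 counts in fibroblasts and 0 and 2 in embryos. Against 3 WT counts it was 86.2-fold higher in Lsh-/- fibroblasts. An L1Md_F3 locus at chr9:55805815-55809402, 994 bp from Rfpl3s, held 49 and 234 counts in fibroblasts and 122 and 87 in embryos. An L1Md_F locus at chr16:98234099-98235564, 2934 bp from B230307C23Rik, held 43 and 200 counts in fibroblasts and 59 in each embryo library.

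The loci below −1 in fibroblasts with the most counts had reads in both libraries. An L1Md_F2 locus at chr1:152009174-152010290, in an intron of Gm17311 on the same strand and 54034 bp from the prostaglandin synthase gene Ptgs2, held 225 WT and 74 Lsh-/- counts in fibroblasts and 27 and 11 in embryos. Its log2 fold change was −1.65 (−2.05 to −1.27) in fibroblasts and −1.23 (−2.40 to −0.18) in embryos. A fragment of 105 bp in an intron of Vim, the gene of the intermediate filament vimentin, lay at chr2:13502392-13502496 on the opposite strand and held 151 and 45 counts in fibroblasts and 74 and 83 in embryos. The exon-overlapping intervals of Vim itself held 5660 CPM for WT and 3640 CPM for Lsh-/- fibroblasts. A wide L1Md_F2 locus at chr15:60918898-60924740 held 144 and 18 counts in fibroblasts and 17 and 10 in embryos, and an L1Md_F3 locus at chr1:115796799-115801697, in an intron of 9330185C12Rik, held 109 and 6 in fibroblasts and 17 and 11 in embryos. An L1Md_F locus at chrX:18384944-18388207 held 116 and 39 counts in fibroblasts. Some of these were in genes and some were not, and the lowest WT count among them was 109.

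In embryos the member above 1 with the most counts was an L1Md_F2 locus at chr9:19504664-19508050, 9223 bp from the olfactory receptor gene Olfr857. It held 0 WT and 293 Lsh-/- counts in embryos, 101-fold higher against 3 WT counts. In WT and Lsh-/- fibroblasts it held 0 and 63 counts, 20.3-fold higher on the same basis. A fragment at chr2:177388110-177389180 held 0 and 116 counts in embryos and 0 and 191 in fibroblasts. In each tissue an LTR locus above 5 lay 0 bp from it, overlapping or adjoining. Whether reads were counted at both loci was not tested. The other members of the list had reads in WT embryos. They were a locus at chr16:98269529-98273079 with 57 and 120 counts, one at chr3:70594146-70594961 in an intron of Gm6634 with 44 and 88, one at chr18:37683057-37683329 near the protocadherin gene Pcdhb22 with 29 and 96, and a wide locus at chr17:88851183-88856390. The last lies in an intron of Foxn2, a forkhead transcription factor gene, on its strand, and held 27 and 106 counts in embryos, a log2 fold change of 2.02 (1.41 to 2.69), beside 12 and 16 in fibroblasts.

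The members below −1 in embryos with the most counts that are given here were shorter fragments, most of them in introns. This is no trait of lower members. Of all 242 members below −1 in embryos 12.4% were wide and 27.3% lay outside genes, close to the 12.9% and 28.1% of all members compared there. A fragment at chr7:82917927-82918317, 18432 bp from the kinase anchoring gene Akap13, held 158 WT and 67 Lsh-/- counts in embryos, a log2 fold change of −1.18 (−1.62 to −0.76), and 221 and 139 in fibroblasts. A piece of 91 bp at chr17:23950502-23950592, in an intron of the splicing factor gene Srrm2, held 54 and 18, and one at chr6:47489260-47490260, in an intron of Ezh2, which encodes a histone methyltransferase, held 46 and 19. The 2 last lay on the opposite strand from the gene. A locus at chr16:16028854-16032375 held 44 and 18 counts, and one at chr19:61196599-61197012 held 63 and 23.

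The loci with the most counts that were within 1 in both tissues had reads in all libraries. A fragment at chr17:3111781-3112547, 2425 bp from Scaf8, held 144 and 227 counts in fibroblasts and 273 and 256 in embryos. Pieces at chr10:66473674-66473905, 351 bp from Reep3, and at chrX:47013980-47015719, which overlaps an exon of Gm14719, held between 99 and 288 counts in every library. The plot of named loci shows lines of many slopes, among them those that start at 0 in WT.

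**Figure D4:**
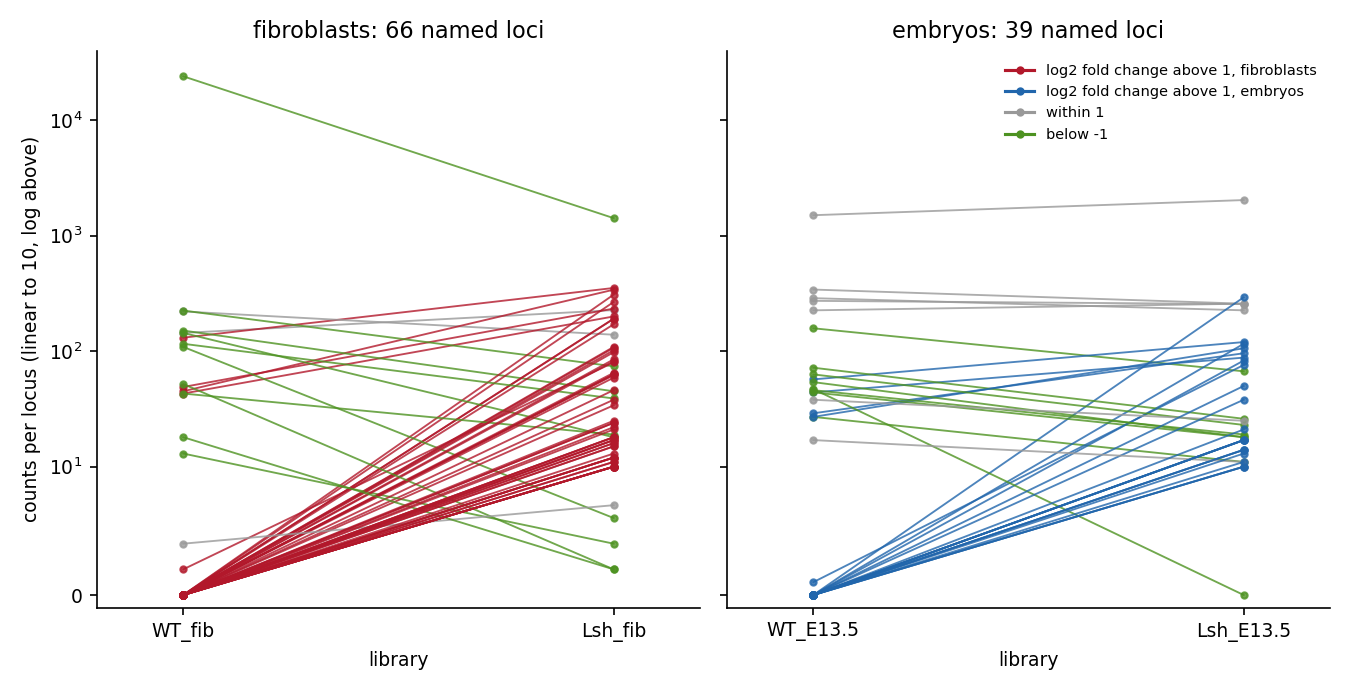
Counts of named L1Md_F-group loci (vertical axis, linear up to 10 and logarithmic above) in the WT and the Lsh-/- library (horizontal axis), for 66 loci in fibroblasts on the left and 39 in embryos on the right. Each line joins the 2 values of 1 locus, coloured by a log2 fold change above 1 (red or blue), within 1 (grey) or below −1 (green). The line at the top left is the locus at chr2:90234648-90235368, with 24030 WT and 1421 Lsh-/- counts in fibroblasts.

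Among wide members, 44 were above 5 in fibroblasts and 17 in embryos, 7 in both. Of the 7 above 5 in both tissues, the one with the most counts over the 4 libraries was an L1Md_F2 locus of 6182 bp at chr6:104639197-104645378. It lay in an intron of Cntn6 and on the opposite strand. Cntn6 encodes a neural cell adhesion protein of the contactin family. The locus held 0 WT and 109 Lsh-/- counts in fibroblasts, and 0 and 83 in embryos. Against 3 WT counts it was 35.2-fold and 28.7-fold higher. An LTR locus above 5 lay 8729 bp away. At chr12:120929183-120934544, 223776 bp from Macc1, a locus of 5362 bp held 0 and 171 counts in fibroblasts and 0 and 17 in embryos. A locus at chr4:23308970-23315090 held 0 and 102 counts in fibroblasts and 5 and 68 in embryos, where its log2 fold change was 3.79 (2.53 to 5.49). A locus at chr4:3400169-3406379, 3220 bp from an LTR locus above 5, held 0 and 38 counts in fibroblasts and 1 and 76 in embryos. On chromosome X a locus at chrX:41426247-41431293 held 0 and 107 counts in fibroblasts and 0 and 17 in embryos.
Some wide members had reads in a single tissue. One at chr5:7755887-7762049, 198423 bp from Steap4, held 0 and 98 counts in fibroblasts and 0 in both embryo libraries, and its longest stop-free stretch was 700 codons. One at chr7:9736118-9742710, 1370 bp from the vomeronasal receptor gene Vmn2r44, held 0 and 38 counts in embryos and 0 in both fibroblast libraries, as an L1Md_F2 locus of 6265 bp at chr3:118655223-118661487 in an intron of Dpyd did with 0 and 21. Most of the rest were lightly covered, since 29 of the 44 in fibroblasts held under 30 counts. A locus at chr7:121684938-121690806, 2173 bp from Pde3b, held 0 and 10 counts in fibroblasts while both embryo libraries had reads, 142 in WT and 159 in Lsh-/-.
The widest members did not follow 1 pattern. At chr1:46127905-46134327, in an intron of Dnahc7b on the opposite strand, 6423 bp held 52 WT and 2 Lsh-/- counts in fibroblasts, a log2 fold change of −4.66 (−7.83 to −2.82). At chr6:92065787-92072133, in an intron of the nuclear receptor gene Nr2c2, the counts were 18 and 2. At chr3:63174712-63181286, in an intron of Mme, they were 38 and 25 in embryos and 0 in both fibroblast libraries.

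Some members above 5 lay close together. In fibroblasts 19 windows of up to 1000000 bp held at least 3 of them. The windows were drawn around members above 5, so the share above 5 inside them is not a result, and how many windows other LINE loci give was not computed. At chr12:120870364-120937902 there were 8 members above 5, with 0 WT and 661 Lsh-/- counts in fibroblasts, among them a locus at chr12:120870364-120874739 with 191. At chr5:7681458-7938035 there were 7, with 2 and 268 counts, and at chr1:116090424-116092587 there were 5, with 0 and 516. In embryos there were 2 such windows. One at chr9:19471620-19567545, near Olfr857 and Olfr58, held 10 members above 5, with 0 WT and 648 Lsh-/- counts in embryos, and 5 of its members were also above 5 in fibroblasts. The other at chr7:69633522-69709190 held 7, with 0 and 253 counts. Neighbouring members may be pieces of the same element or transcript, so they are not separate events.

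Where the intervals on either side of members above 5 held at least 10 counts, most had a log2 fold change in the same direction. The tables count reads in an interval on each side of a locus. From a check of the counts it was placed 10 to 11 kb away, with upstream meaning lower coordinates, whereas the study's text speaks of intervals as wide as the repeat. Of the 201 members above 5 in fibroblasts, 48 had an upstream interval with at least 10 counts, and 42 of these (87.5%) were above 5, as were 39 of 42 downstream intervals (92.9%). For members within 1 the numbers were 0 of 153 and 2 of 156. Of the intervals of all LINE loci 6.51% upstream and 6.62% downstream were above 5 in fibroblasts. Intervals beside other LINE loci above 5 were not examined separately. In embryos 16 of 26 upstream and 13 of 26 downstream intervals of members above 5 were above 5, beside 1.94% and 2.01% for all LINE loci. Across the whole group the intervals had medians of 0.17 and 0.15 in fibroblasts and −0.01 and 0.0082 in embryos. At chr10:104237951-104240863 the downstream interval held 0 WT and 189 Lsh-/- counts in fibroblasts. At chr9:19504664-19508050 it held 0 and 168 in embryos. Whether reads of such a member come from its own promoter or from a longer transcript was not tested.

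**Figure D5:**
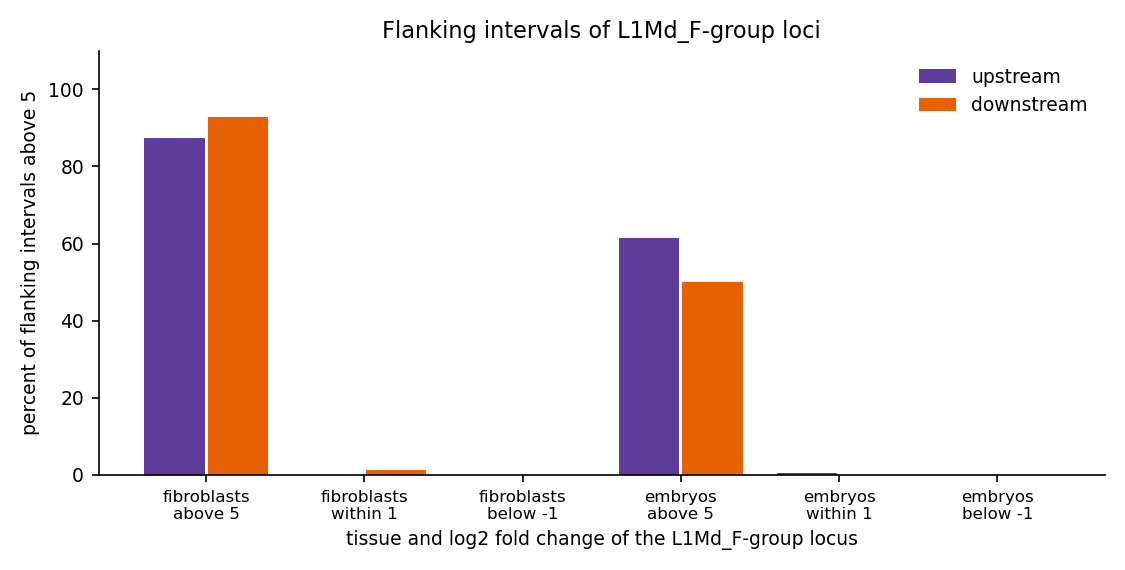
Percent of flanking intervals with at least 10 counts whose log2 fold change was above 5 (vertical axis), by tissue and by the log2 fold change of the L1Md_F-group locus they flank (horizontal axis). Purple bars are upstream and orange bars downstream intervals. Beside members above 5 the bars stand at 87.5% and 92.9% in fibroblasts and at 61.5% and 50% in embryos, and beside the other members they stand at or near 0.

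LTR loci above 5 lay near a part of these members. In fibroblasts 52 of the 201 members above 5 (25.9%) had an LTR locus above 5 within 10 kb, against 2 of the 553 others. In embryos it was 15 of 80 (18.8%) against 4 of 1088. For all LINE loci above 5 the shares were 29.6% in fibroblasts and 11.3% in embryos. Among members with no such LTR locus within 10 kb, 149 of 700 (21.3%) were above 5 in fibroblasts, against 6.32% of all LINE loci without one, and 65 of 1149 (5.66%) in embryos, against 2.75%. The part of LTR transcription in the counts of members near an LTR was not tested.

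The same member often behaved differently in the 2 tissues, which share no library. Both had at least 10 counts at 464 members. Of these, 42 were above 1 in both, 24 below −1 in both, 155 within 1 in both, and 35 above 1 in one tissue and below −1 in the other. With both counting intervals clear of 0, 10 members were above 1 in fibroblasts and below −1 in embryos, and 5 the other way. Pearson's r of the log2 fold changes was 0.56 and Spearman's rho 0.17 over these loci, as a description of loci that are not independent. Pearson's r takes in the values of loci without WT reads, which depend on the prior count and do not measure the size of the difference. Above 5 in both tissues were 21 members, which is 10.4% of those above 5 in fibroblasts and 26.2% of those in embryos. Of the 201 members above 5 in fibroblasts, 110 had no read in either embryo library. All 201 together held 210 WT and 1707 Lsh-/- counts in embryos, and 142 of the WT counts lay at chr7:121684938-121690806. A difference of at least 1 with a counting interval clear of 0 was found in both tissues at 32 members above and 11 below. Of the 11, the one with the most counts besides the locus near Ptgs2 was an L1Md_F2 locus at chr19:61180614-61182853 in an intron of 5830428H23Rik, with 43 and 19 counts in fibroblasts and 47 and 0 in embryos.

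On chromosome X, 22 of 60 members compared (36.7%) were above 5 in fibroblasts, and 5 of 82 (6.10%) in embryos. Of all LINE loci on any chromosome 8.74% and 3.09% were above 5. The share over all LINE loci on chromosome X was not computed, so these values do not show a trait of the group. On the autosomes and unplaced chromosomes 25.8% of members were above 5 in fibroblasts and 6.93% in embryos, with medians of 0.53 and 0.19. The medians of chromosome X members were 1.56 in fibroblasts and −0.17 in embryos.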

How the data were processed

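The authors made stranded (dUTP) libraries for paired-end reads, mapped reads to mm9 with TopHat 1.4.0 allowing no mismatch, kept uniquely mapped reads and joined them to repeatmasker annotations. The values the authors deposited are raw read counts for each repeat locus and flanking interval, in 6 tables for each of 4 libraries, and depth across the tables was 19216257 to 33904311 counts. Loci without a read are not listed and were given 0. Whether strand was used in counting, and whether a pair counted once, is not stated in the sources used here. Shared or nearly identical elements receive few unique reads.

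The L1Md_F group and the lists were chosen with earlier results of these data known. Library sizes came from TMM in edgeR 4.0.16 (R 4.3.3) over intervals flanking LINE-1 loci. A prior count of 0.125 was used, and a locus was compared when its 2 libraries held 10 counts or more together (Python 3.11.15, pandas 2.3.3, SciPy 1.17.1). Ratio intervals are exact conditional binomial 95% intervals. With 1 library a group no test across genotypes was run. Starts were read from 0, because 842 of 859 plus-strand IAPLTR loci over 4 kb then begin with TG and 6 when read from 1, and are printed from 1. The study's text speaks of flanking intervals as wide as the repeat. They were placed 10 to 11 kb away here because all 955 repeats with at least 20 counts wholly in that bin held no more counts than the interval in WT embryos (83.4% at 9 to 10 kb, 84.9% at 11 to 12 kb). Genes came from GENCODE vM1 on NCBIM37, which is mm9, and 173 LINE loci on chromosomes absent from it were not annotated.

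Named loci are, for each tissue, the 5 with the most counts, the 6 most-counted above 1 and below −1 with a counting interval clear of 0, the 4 widest and all wide loci above 5, plus the 3 most-counted above 1 and below −1 in both tissues. Not every locus under this rule is reported here. Alignment to the ruler (local, Biopython), windows of members above 5 and the Hells exons were chosen after values were seen. Calculations were tested on simulated data. Alternatives were DESeq2 1.42.0 size factors, the LINE table total, the total over 6 tables, a prior count of 1, all listed loci, a minimum of 50 counts, other width limits, joining fragments within 1000 bp, and leaving out chromosomes X and Y, exon-overlapping loci or the most-counted member. The DESeq2 size factors came to 1 for every library, so that alternative compares unscaled counts and is a weak check of the scaling.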

Additional observations from a re-analysis of the deposited data

Results flagged for a closer look

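The following loci had log2 fold changes of opposite sign in the 2 tissues with both counting intervals clear of 0, and not every such locus is given. The difference between tissues was not tested. The L1Md_F3 fragment at chr2:90234648-90235368 had −4.13 in fibroblasts and 0.49 in embryos. The L1Md_F3 locus at chr9:55805815-55809402 had 2.21 and −0.43.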

How the results depend on the processing

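Of 280 comparisons of a summary value with an alternative, 220 stayed within the counting or order-statistic interval of the value given, 55 moved and 5 changed sign. For single named loci 496 of 512 stayed within the counting interval, and 1 locus changed sign, at chr18:37683057-37683329 in fibroblasts, from −0.11 to 0.01 with the LINE table total and 0.57 with the total over 6 tables. The cause was not tested except where stated.

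The log2 ratio of summed counts in fibroblasts was 0.78 without the most-counted member, 0.16 with the total over 6 tables, −0.47 with DESeq2 size factors and −0.40 with the LINE table total. In embryos it was 0.11 and 0.19 with the last 2. With the total over 6 tables, medians in fibroblasts were 1.28 for the group, 1.21 for shorter fragments and 1.30 for L1Md_F2, with 55.6% above 1 and 9.42% below −1. A prior count of 1 asks more reads of a locus with none in WT, and the shares above 5 in fibroblasts became 8.36% for the group, 12.5% for wide, 7.63% for shorter, 9.33% for L1Md_F, 7.97% for L1Md_F2 and 9.8% for L1Md_F3 loci. In embryos they became 1.2%, 2.65%, 0.983%, 1.15%, 1.35% and 0.521%, with 18.4% below −1.

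With all listed loci, medians in fibroblasts were 0.88 for the group, 0.79 for shorter, 3.15 for L1Md_F and 0.88 for L1Md_F2 loci, with 49% above 1 and 36.7% below −1. Shares above 5 were 8.24%, 11.5% (wide), 7.75% (shorter), 12.6% (L1Md_F), 8.15% (L1Md_F2) and 6.59% (L1Md_F3). In embryos the medians were 0.05 for the group, 0.05 for shorter and −0.05 for L1Md_F2 loci, with 41.8% above 1 and 43.5% below −1, and 8.68%, 8.8% (shorter) and 8.33% (L1Md_F3) above 5.

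With at least 50 counts, medians in fibroblasts were 0.92 for the group and 0.99 for L1Md_F2, with 48.4% above 1, 9.52% below −1 and 31% above 5, and 50% of wide, 9.09% of L1Md_F and 34.5% of L1Md_F2 loci above 5. Upstream intervals had a median of 0.11. In embryos 16.7% were above 1, 8.6% below −1 and 0% of L1Md_F3 loci above 5, the L1Md_F median was −0.00092 and that of downstream intervals −0.03. At 6000 bp wide loci in fibroblasts had a median of 4.08 and 50% above 5. Low counts limit most members, since 6116 of 6870 listed in fibroblasts and 6662 of 7830 in embryos held under 10 counts. A fit of genotype paired over the 2 tissues was not run.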
